A study of Homo sapiens with 12 samples.

Results

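LOX-IMVI BR, a human metastatic melanoma cell line, was compared between exposure to 6-thio-dG at 5 µM and a control in 4 RNA sequencing libraries. The 4 libraries were taken by their labels from the 12 of the series and make up 2 groups of 2: LOX-IMVI BR with the control and LOX-IMVI BR with 6-thio-dG. The other 8 libraries held LOX-IMVI BR with BIBR1532 at 25 µM, and the line A375 with the control and with both compounds. Cells were seeded in 6-well plates at 25000 per well, total RNA was taken with TRIzol, and the TruSeq kit used keeps no record of the strand. The sources used here do not state the length of exposure, the vehicle given as control or the meaning of BR. Each condition rests on a single cell line, and the labels call the libraries biological replicates without saying whether they came from separate cultures. The p-values therefore measure only the spread between these libraries, which may be technical.

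6-thio-dG is a deoxynucleoside form of 6-thioguanine, a purine analogue used against leukaemia. Telomerase, the enzyme that adds telomere repeats to chromosome ends, can build it into telomeric DNA in place of the natural nucleotide. Damage signalled from chromosome ends is known to act through the ATM and ATR kinases and the transcription factor p53, which turns on the cell cycle inhibitor CDKN1A. Arrested cells then lose transcripts of the genes that drive mitosis. BIBR1532, the second compound of the series, inhibits the catalytic subunit of telomerase directly.

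Levels are given as CPM, the usual depth-scaled read count, with TMM-scaled library totals, first the 2 control libraries and then the 2 libraries with 6-thio-dG. Log2 fold changes are 6-thio-dG minus control ± SE, from edgeR's quasi-likelihood test over all 12 libraries. Calls are genes whose Benjamini-Hochberg adjusted p, taken over all genes tested, lay under 0.05. The 4 libraries held 20941572 to 24818133 counts. Genes with at least 1 count numbered 36440 and 37200 in the control and 43631 and 42773 with 6-thio-dG, and NONCODE loci, a catalogue of long noncoding genes, took 4.54 ± 0.104% and 7.29 ± 0.179% of counts (SD, n = 2 each). Replicates differed by a median chi-square of 0.58 per gene in the control and 0.652 with 6-thio-dG, where counting error alone gives 0.455. The spread used in the test is that of all 12 libraries (a biological coefficient of variation of 25.8%), and that of the 6 LOX-IMVI BR libraries alone was 4.55%. Of the melanocyte genes PMEL and SOX10 stayed below 1 CPM and TYR and DCT below 0.1 CPM in all 4 libraries, MITF lay between 7.23 and 8.9 CPM, and PAX3, an earlier regulator of this lineage, between 35.4 and 42 CPM. Of the markers of other cell types some were at or near 0, with EPCAM at most at 0.091 CPM and no count of CD3E, MS4A1 or EMCN. Others on the same lists were expressed, such as CD68 at 92.3 and 92.3 CPM in the control, the endothelial gene ENG at 82 and 81.9 CPM, the keratinocyte gene FLG at 68.4 and 69 CPM and the fibroblast genes described with the matrix below. The 12 leukocyte markers tested had a summed level of 95 and 95.6 CPM against 121 and 138 CPM. Most of it was CD68, which was not called (113 and 130 CPM with 6-thio-dG). Of the 12 markers 2 rose. They were PTPRC, the pan-leukocyte gene of CD45, at 0.151 and 0.137 CPM against 2.33 and 1.35 CPM (3.61, adjusted p = 0.000834), and LCP1. Of 10 endothelial markers ROBO4, ESAM and CLDN5 rose and KDR fell. The summed level of the 10 was 117 and 115 CPM against 124 and 129.7 CPM. Of 18 keratinocyte markers KRT15 and KRT17 fell. The summed level of the 18 was 165 and 154 CPM against 200.3 and 198 CPM. This sum includes FLG, which was not called (102 and 115 CPM with 6-thio-dG). The calls of LCP1, ROBO4 and ESAM were lost with any 1 library left out (adjusted p up to 0.12, 0.184 and 0.129), and those of CLDN5, KRT17 and KDR in 3, 3 and 1 of the 4 cases (adjusted p up to 0.363, 0.109 and 0.0559). Their part in the results below was not tested.

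Of 29114 genes tested, 4939 (17%) were called, 2855 of them higher (9.81%) and 2084 lower (7.16%) with 6-thio-dG. In all 4939 both 6-thio-dG libraries lay on the same side of both control libraries. The share of such genes over all genes tested was not counted, so this describes the calls and adds no support to them. Among the 14419 genes with a symbol, 896 (6.21%) were higher and 1551 (10.8%) were lower. These shares are the background for the counts of gene lists below. The 2 directions differed in level: the genes called lower were mostly well expressed, with a median of 40.7 CPM in the control and 13.4 CPM with 6-thio-dG. The genes called higher were mostly scarce, with a median of 0.401 CPM in the control and 1.93 CPM with 6-thio-dG, and 285 of the 896 reached a mean of 5 CPM. With any 1 of the 4 libraries left out, a single library stood for its condition and 1550 to 1864 genes were called. With the 6 LOX-IMVI BR libraries alone the count was 15119 of 24087 genes tested (7708 higher, 7411 lower), since the spread there is smaller. Counts of list members given below for the LOX-IMVI BR libraries alone have this as their background. The shares of 6.21% and 10.8% do not apply to them. The split between directions moved with the scaling: 57.8% of calls were higher here, 73.5% with upper-quartile factors, which raise all log2 fold changes by a median of 0.23, and 47.7% in the DESeq2 test.

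**Figure D1:**
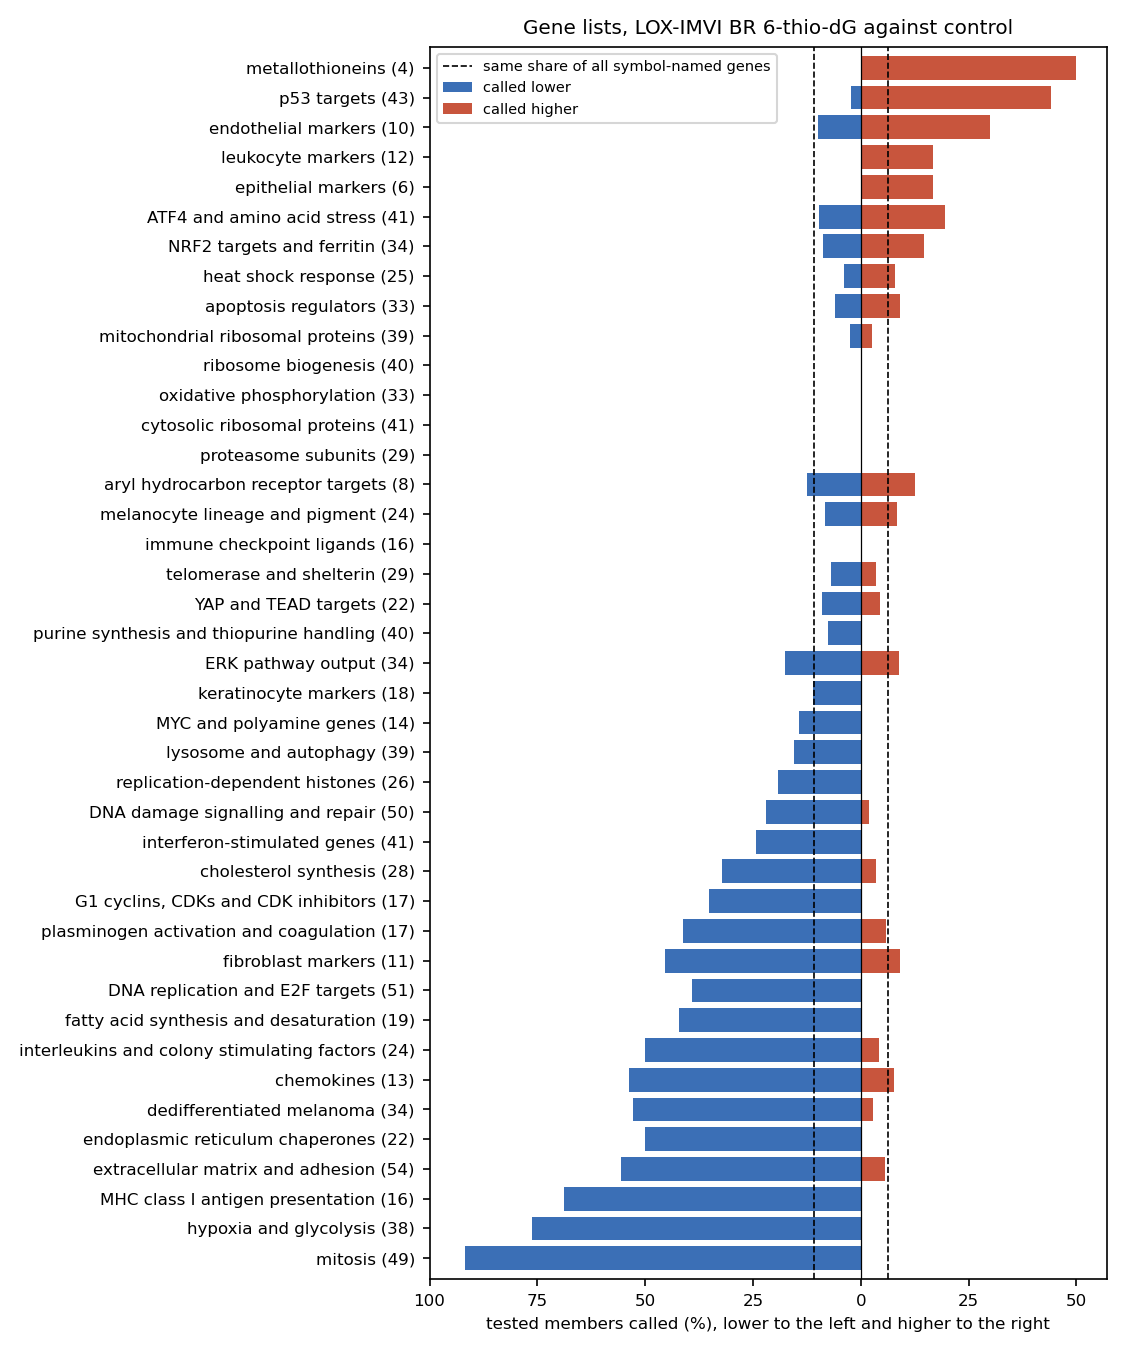
Share of the tested members of 41 gene lists called lower (blue, to the left) or higher (red, to the right) with 6-thio-dG against control in LOX-IMVI BR, in percent. The number of tested members stands in brackets, and dashed lines mark the shares over all symbol-named genes (10.8% lower, 6.21% higher). Mitosis, hypoxia and glycolysis, and MHC class I genes reach furthest to the left, and 5 lists, 4 of them of housekeeping genes, have no bar.

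Mitosis genes gave the largest share of calls of the 41 lists: 45 of 49 tested members fell, none rose, and the median log2 fold change was −2.30, against −0.13 over all symbol-named genes. PLK1, the kinase that starts mitotic entry and spindle assembly, read 238 and 238 CPM in the control and 15.2 and 16.7 CPM with 6-thio-dG (log2 fold change −3.90 ± 0.31, adjusted p = 4.61e-06), a 14.9-fold fall. CCNB1, the cyclin that activates CDK1 at mitosis, read 156 and 147 CPM against 13.4 and 14.3 CPM. AURKA, a kinase of the centrosomes, read 126 and 124 CPM against 19.2 and 17.8 CPM. The kinesin gene KIF20A, whose motor acts in cytokinesis, read 208 and 206 CPM against 12.3 and 14.7 CPM, and UBE2C, the ubiquitin-conjugating enzyme of the anaphase-promoting complex, 166 and 168 CPM against 26.8 and 29.5 CPM. The 2 libraries of each condition lay close together in each of these genes and the conditions were 5 times or more apart. BUB1B, of the spindle checkpoint, fell from 45.5 and 45.2 CPM to 8.98 and 9.28 CPM. Among the motor proteins of the kinesin family 14 of 34 tested genes fell and 1, KIF17, rose. Leaving out 1 library, 29 to 36 mitosis genes and 7 to 11 kinesins were called lower.

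The promoters of such genes often carry the cell cycle homology region (CHR, TTTGAA or TTCGAA), at which the DREAM and MuvB complexes are known to bind, and CCAAT boxes. In the 250 bases before the annotated start, from RefSeq on GRCh38.p14, a CHR on either strand was found in 23 of the 41 mitosis promoters in the table (56.1%) and in 14.6% of all 27305 promoters. A CCAAT on either strand was found in 73.2% and 33% of them. PLK1 (chr16:23678769-23678888, plus strand) and CCNB2, a second mitotic cyclin chosen here for its promoter (chr15:59105026-59105145, plus strand), are shown over the last 120 bases before the start because each holds 1 CHR, set in capitals.
PLK1: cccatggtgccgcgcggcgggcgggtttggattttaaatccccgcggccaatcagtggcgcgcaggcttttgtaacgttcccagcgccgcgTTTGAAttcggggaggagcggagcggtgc
CCNB2: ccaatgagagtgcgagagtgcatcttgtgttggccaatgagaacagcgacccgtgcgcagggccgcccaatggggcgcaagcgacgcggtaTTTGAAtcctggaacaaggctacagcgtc
CCNB2 fell by 2.55 on the log2 scale. A match of letters is a description and not a binding site: CCNB1 and KIF20A fell too and hold no such letters in this window.

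Genes of DNA replication moved the same way with smaller changes: 20 of 51 fell, none rose, and the median was −0.90. RRM2, a subunit of ribonucleotide reductase, read 303 and 284 CPM against 87 and 92.9 CPM (−1.71 ± 0.30, adjusted p = 0.00142), and MCM4, of the replicative helicase, 503 and 501 CPM against 155 and 163 CPM. The sliding clamp gene PCNA read 229.8 and 213 CPM against 206 and 201 CPM and was not called (adjusted p = 0.844). Of 50 genes of damage signalling and repair 11 fell and 1 rose. H2AFX, the histone that is phosphorylated around DNA breaks, fell from 274 and 257 CPM to 55.6 and 55.6 CPM. The damage kinase ATM, at 207 and 211 CPM against 185 and 178 CPM, was not called (adjusted p = 0.875). Among G1 regulators 6 of 17 fell, among them the CDK inhibitor CDKN2C, from 86 and 88.2 CPM to 8.14 and 8.28 CPM. With any 1 library left out 4 to 7 replication, 1 to 3 repair and 2 G1 genes were lower, and in the LOX-IMVI BR libraries alone 45, 37 and 13 were.

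Genes that p53 is known to activate went the other way: 19 of 43 rose and 1 fell, with a median of 0.96. CDKN1A, the inhibitor of cyclin-dependent kinases known as p21, read 54.6 and 51.3 CPM in the control and 276 and 268 CPM with 6-thio-dG (2.36 ± 0.35, adjusted p = 0.000496). GDF15, a secreted stress cytokine, read 44.3 and 43 CPM against 355 and 338 CPM (2.99 ± 0.38, adjusted p = 0.000158). GADD45A, a growth arrest protein, read 43.5 and 40.1 CPM against 205 and 205 CPM. The kinase gene PLK3 rose from 8.69 and 9.38 CPM to 40.5 and 38.7 CPM, and the antiproliferative gene BTG2 from 4.17 and 2.96 CPM to 14.4 and 16 CPM. In all of these genes the lower 6-thio-dG library was more than 3 times the higher control library. MDM2, the ubiquitin ligase that holds p53 down, read 104 and 108 CPM against 483 and 474 CPM (2.17 ± 0.46, adjusted p = 0.0048). This call was lost without either control library (edgeR adjusted p = 0.0613 without control replicate 1 and 0.0586 without control replicate 2), and part of its reads could come from the carboxypeptidase M gene on the opposite strand. Without 1 of the libraries 7 to 14 members were called higher, and in the LOX-IMVI BR libraries alone 30 were. Of 33 regulators of apoptosis 3 rose and 2 fell, and BMF, a BH3-only protein, fell from 11 and 9.65 CPM to 0.682 and 0.759 CPM (−3.83 ± 0.35).

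**Figure D2:**
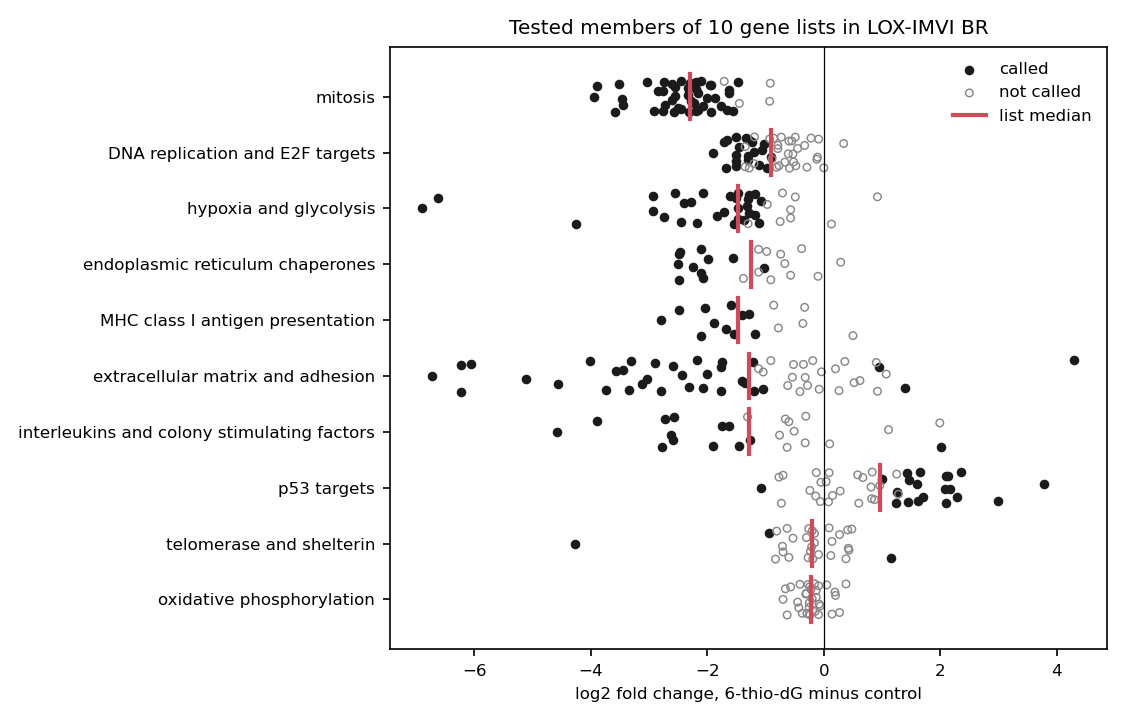
Log2 fold change, 6-thio-dG minus control, of each tested member of 10 gene lists in LOX-IMVI BR. Filled points were called, open points were not, and the red bar is the median of the list. All 49 mitosis genes lie below 0, p53 targets lie mostly above 0, and the oxidative phosphorylation genes stay between −0.70 and 0.38.

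Telomerase genes were close to the background. Of 29 telomerase and shelterin genes 1 rose, 2 fell and the median was −0.20. TERT, the catalytic subunit, read 9.29 and 12 CPM against 13 and 12.7 CPM (0.27 ± 0.42, adjusted p = 0.733). PIF1, a helicase that removes telomerase from DNA ends, fell from 14.5 and 17.2 CPM to 0.762 and 0.862 CPM (−4.27 ± 0.41, adjusted p = 1.78e-05). CTC1, of the complex that fills in the telomeric second strand, was higher and SMG6 lower, and both calls were lost with any 1 library left out (adjusted p up to 0.173 and 0.249). Of 40 genes of purine synthesis and thiopurine handling 3 fell and none rose. HPRT1, which converts thioguanine to its nucleotide, read 79.1 and 73.1 CPM against 43.6 and 43.4 CPM and missed the threshold (adjusted p = 0.0746). In the LOX-IMVI BR libraries alone 6 telomerase genes were higher and 15 lower, and 24 purine genes were lower.

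Hypoxia and glycolysis genes fell in 29 of 38 tested members and none rose, with a median of −1.47. These genes are turned on by the hypoxia-inducible factors (HIF) and include the enzymes that take glucose to lactate. CA9, the carbonic anhydrase of the cell surface and a standard hypoxia marker, read 18.8 and 17.9 CPM against 0.16 and 0.138 CPM (−6.89 ± 0.69, adjusted p = 2.21e-05), and shares its place with ARHGEF39 on the opposite strand. STC1, stanniocalcin, read 245 and 242 CPM against 2.25 and 2.66 CPM (−6.63 ± 0.49, adjusted p = 3.21e-06). VEGFA, the main angiogenic factor, read 254 and 260.3 CPM against 14.2 and 12.9 CPM, and the glucose transporter gene SLC2A1 1039.8 and 979 CPM against 151 and 151 CPM. NDRG1, of cell stress and differentiation, read 307 and 284 CPM against 55.9 and 56.1 CPM. In each of these the conditions stood at least 5 times apart and replicates nearly overlaid each other. DDIT4, an inhibitor of mTORC1 that hypoxia and ATF4 both induce, fell from 368 and 353 CPM to 11.2 and 10.8 CPM. Some enzymes of the pathway fell too. LDHA, lactate dehydrogenase, read −2.56, PGK1 −1.61, ALDOA −1.50, PKM −1.47 and GAPDH −1.29 in log2 fold change. All were called and all are named here after their values were seen. On the same list PFKP (−0.97), PFKFB3 (−0.75), HK1 (−0.71) and HK2 (−0.49) were not called. Leaving out 1 library ended the calls of GAPDH and PKM whichever it was (adjusted p up to 0.177 and 0.101) and of PGK1 and ALDOA without either 6-thio-dG library (adjusted p up to 0.0704 and 0.0567). LOX, lysyl oxidase, a HIF target, had a log2 fold change of 0.92 and was not called. Between 11 and 20 members were called lower when 1 library was left out.

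HIF binds the letters ACGTG. In the same 250 base window ACGTG on either strand was found in 16 of 33 hypoxia and glycolysis promoters (48.5%) and in 18.7% of all promoters, and also in 31.7% of the mitosis and 40% of the endoplasmic reticulum chaperone promoters. CA9 (chr9:35673808-35673927, plus strand) and LDHA (chr11:18394443-18394562, plus strand) are shown for the marker and the enzyme with the most matches among those examined, with matches in capitals. Both strands are marked, so ACGTG appears as CACGT where it lies on the other strand and as CACGTG where both overlap.
CA9: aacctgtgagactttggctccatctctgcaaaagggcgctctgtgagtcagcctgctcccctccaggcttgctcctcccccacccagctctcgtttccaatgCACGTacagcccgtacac
LDHA: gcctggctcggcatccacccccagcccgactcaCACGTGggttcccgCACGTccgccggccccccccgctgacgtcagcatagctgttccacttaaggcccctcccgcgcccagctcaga
SLC2A1 fell too and holds no such letters in its 250 bases.

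Matrix genes included 5 of the 15 largest falls. Of 54 genes of the extracellular matrix and adhesion 30 fell and 3 rose, with a median of −1.29, and of 37 collagens 13 fell and 5 rose. COL1A1, the main chain of type I collagen, read 1640.4 and 1618 CPM against 15 and 15.9 CPM (−6.72 ± 0.40, adjusted p = 1.16e-06), a 105-fold fall. COL3A1 read 154 and 148 CPM against 1.48 and 2.55 CPM. The 3 chains of type VI collagen fell together: COL6A1 from 2644 and 2539 CPM to 109 and 109 CPM, COL6A2 from 2609.9 and 2509 CPM to 214 and 221 CPM, and COL6A3 from 76.7 and 73.4 CPM to 0.842 and 1.14 CPM. COL5A1 did not move with them, at 158 and 168 CPM against 157 and 160.2 CPM (adjusted p = 0.969), while COL5A2, its partner chain, fell from 37.5 and 37.6 CPM to 7.58 and 9.1 CPM. The 5 collagens called higher were scarce, all below 2 CPM in every library. FN1, fibronectin, fell from 305 and 308 CPM to 28 and 33.6 CPM, and THBS2, thrombospondin, from 139.9 and 142 CPM to 3.81 and 4.28 CPM.

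The proteases that cut this matrix split. MMP2, a gelatinase, read 1687 and 1655 CPM against 151 and 155 CPM, and MMP14, the membrane protease that activates it, 1365 and 1345 CPM against 192 and 199 CPM. MMP9, the second gelatinase, fell from 25.1 and 19.4 CPM to 0.201 and 0.448 CPM. MMP3, stromelysin, rose from 2.71 and 2.41 CPM to 49.7 and 51.8 CPM (4.30 ± 0.42, adjusted p = 1.98e-05), although reads of a noncoding gene on the opposite strand, WTAPP1, cannot be told apart from it. Of 16 metalloproteases tested 5 fell and 1 rose. TFPI2, an inhibitor of proteases laid down in matrix, fell from 1032 and 979 CPM to 129 and 123 CPM, and SERPINB2, an inhibitor of urokinase, rose from 75.9 and 72.4 CPM to 316 and 308 CPM. Of 11 fibroblast markers tested 5 fell, PDGFRA, COL1A1, COL3A1, FAP and THY1, and 1 rose, ACTA2 (a call lost with any 1 library left out). The summed level of the 11 tested went from 1975 and 1939.8 CPM to 61 and 66 CPM. In the control COL1A1 made up most of this sum. Other fibroblast genes were low in the control already, with COL1A2 at 2.76 and 2.46 CPM, LUM at 0.753 and 0.592 CPM and DPT at 0.1 and 0.091 CPM, and what part other cells had in these falls was not tested. In bulk RNA, fewer cells of a type and less RNA per cell cannot be told apart. With any 1 library left out 20 to 23 matrix genes and 11 collagens were called lower.

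**Figure D3:**
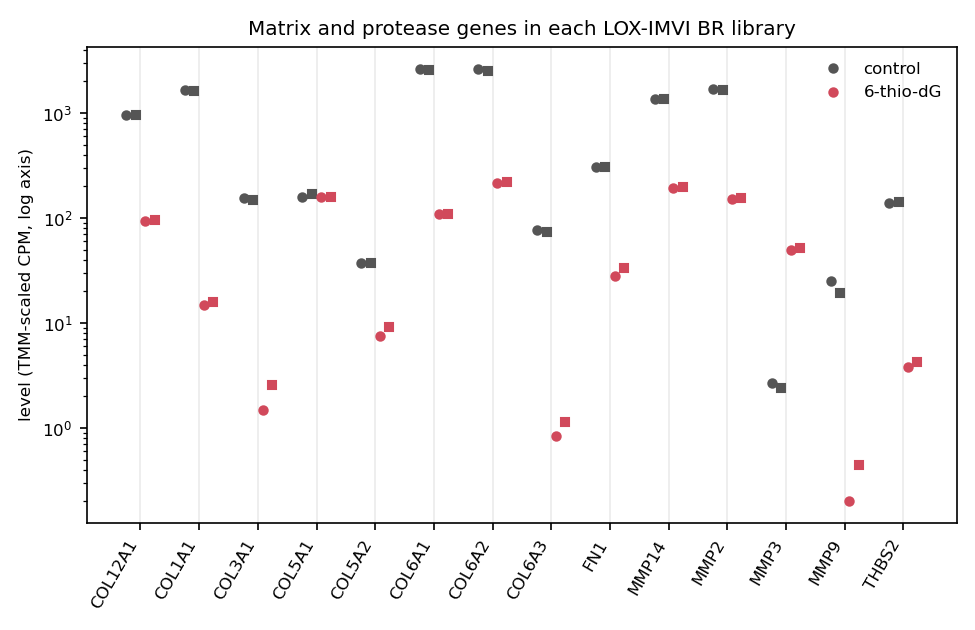
Level of 14 matrix and protease genes in each LOX-IMVI BR library, in TMM-scaled CPM on a log axis. Grey points are the control and red points 6-thio-dG (circle, replicate 1; square, replicate 2). COL5A1 overlaps between conditions, MMP3 lies higher with 6-thio-dG, and the other 12 lie lower.

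Genes of the dedifferentiated melanoma state, which is marked by AXL and WNT5A and low MITF, fell in 18 of 34 members and rose in 1, with a median of −1.11. WNT5A, a signal for invasion, read 494 and 473 CPM against 101 and 101 CPM (−2.26 ± 0.31, adjusted p = 0.000286). LOXL2, which crosslinks collagen, read 687 and 654 CPM against 40.1 and 41.7 CPM, and IGFBP3, which binds insulin-like growth factors, 129 and 128 CPM against 11.1 and 12.6 CPM. PDGFRA, the receptor of platelet-derived growth factor, went from 56.9 and 55.3 CPM to 5.01 and 5.21 CPM. The receptor kinase AXL read 442 and 427 CPM against 203 and 210.1 CPM (−1.07 ± 0.27, adjusted p = 0.0129), and this call was lost with any 1 library left out (adjusted p up to 0.138). The member called higher was SNAI1, the transcription factor Snail, at 2.17, a call lost with any 1 library left out (adjusted p up to 0.174). MITF was not called (adjusted p = 0.857). Between 8 and 12 members were called lower when 1 library was left out.

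Chaperones of the endoplasmic reticulum, which fold secreted proteins such as collagens, fell in 11 of 22 members and none rose, with a median of −1.25. HSPA5, the chaperone BiP, read 2267 and 2169.7 CPM against 387 and 405 CPM (−2.49 ± 0.26, adjusted p = 3.2e-05). CALR, calreticulin, read 1169 and 1151 CPM against 192 and 223 CPM. PDIA4, which forms disulphide bonds, read 528 and 513 CPM against 89.9 and 97.5 CPM, and MANF, a secreted stress factor, 175 and 166 CPM against 35.4 and 36.9 CPM. The endoplasmic reticulum stress element (ERSE), a CCAAT box spaced from a CCACG and searched on both strands, binds NF-Y, ATF6 and XBP1. It was found in 6 of the 20 promoters of this list in the table (30%) and in 22 of all 27305 (0.0806%). HSPA5 (chr9:125241344-125241463, minus strand) is shown for its 1 ERSE, in capitals.
HSPA5: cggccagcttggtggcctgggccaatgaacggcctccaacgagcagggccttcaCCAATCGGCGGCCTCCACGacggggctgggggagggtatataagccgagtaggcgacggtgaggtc
PDIA4 fell by as much with no match in its window.

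The amino acid stress genes under ATF4 did not follow: 8 of 41 rose and 4 fell, and their median of −0.15 turned to 0.08 with upper-quartile factors. SLC3A2, the heavy chain of amino acid transporters, rose from 192 and 188 CPM to 1353 and 1323 CPM (2.82 ± 0.35, adjusted p = 0.000122), and the transcription factor gene ATF3 from 2.66 and 2.14 CPM to 11 and 12.3 CPM. DDIT3, the factor CHOP, read 38.7 and 40.2 CPM against 78 and 85.9 CPM, and TRIB3, a pseudokinase, 23.7 and 23.5 CPM against 57.2 and 58.4 CPM. Both of the latter calls were lost with any 1 library left out (adjusted p up to 0.171 and 0.15). The 4 that fell were DDIT4, VEGFA, which the list shares with the hypoxia genes, VLDLR and SLC7A5, the last lost with any 1 library left out (adjusted p up to 0.197). Of 34 NRF2 targets 5 rose and 3 fell, and OSGIN1, an oxidative stress gene, rose from 2.61 and 3.14 CPM to 33.6 and 31.6 CPM. SLC30A1, the zinc exporter, rose from 12.4 and 12.4 CPM to 54.1 and 54.4 CPM and the metallothionein gene MT1E from 71.3 and 69.2 CPM to 240.0 and 228 CPM, both of which respond to zinc.

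Lipid synthesis genes moved down: 8 of 19 genes of fatty acid synthesis fell and none rose, and 9 of 28 of cholesterol synthesis fell and 1 rose. SCD, which puts the double bond into stearate, read 1529.8 and 1470.0 CPM against 173 and 174 CPM (−3.11 ± 0.29, adjusted p = 1.45e-05). GPAM, which starts glycerolipid synthesis, read 514 and 496 CPM against 56 and 57.5 CPM. INSIG1, which retains the sterol sensor, read 353 and 345 CPM against 93.4 and 96.8 CPM. With any 1 library left out 2 to 5 fatty acid and 2 to 3 cholesterol genes were called lower, and in the LOX-IMVI BR libraries alone 17 and 20 were.

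Of 16 MHC class I genes tested 11 fell and none rose, with a median of −1.47. PSMB9, an interferon-induced proteasome subunit, read 26.8 and 26.5 CPM against 3.29 and 4.41 CPM (−2.79 ± 0.42, adjusted p = 0.000538). TAPBP, tapasin, which loads peptides, read 481 and 474 CPM against 115 and 116 CPM. CALR and PDIA3, which are on both lists, are chaperones. B2M, the shared light chain, had 0 or 1 count in each library, and PSMA1, a subunit of every proteasome, had 1 to 3, so a level near 0 in this table is not read as absence. Interferon-stimulated genes fell in 10 of 41 and none rose: GBP2, a guanylate-binding protein, from 27.1 and 25.7 CPM to 0.401 and 0.586 CPM, GBP1 from 24 and 24.1 CPM to 2.61 and 3.69 CPM. With any 1 library left out 4 to 6 MHC and 4 to 7 interferon genes were called lower, and 28 interferon genes were lower in the LOX-IMVI BR libraries alone.

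Inflammatory genes fell too: 12 of 24 on a list of interleukins, colony stimulating factors and intracellular NF-κB genes and 7 of 13 chemokines were lower and 1 of each was higher, and without 1 library 10 and 4 to 5 were called lower. IL1B, interleukin 1 beta, read 422 and 403 CPM against 61 and 72.1 CPM (−2.63 ± 0.29, adjusted p = 4.6e-05). The NF-κB genes among the 12 were TNFAIP2, TNFAIP3 and NFKBIA, an inhibitor of NF-κB, and CXCL8, whose call was lost with any 1 library left out (adjusted p up to 0.18), counts in both lists. IL6 read 28.7 and 28.7 CPM against 1.64 and 2.21 CPM, LIF 84.8 and 80.5 CPM against 11.9 and 13.3 CPM, and the neutrophil chemokine gene CXCL2 63.1 and 59.6 CPM against 7.86 and 8.31 CPM. C3, the central complement protein, fell from 1053 and 1022 CPM to 36.6 and 42.7 CPM. Its upstream proteases C1R, at 29.1 and 28.6 CPM against 1.56 and 2.1 CPM, and C1S, at 35.1 and 35.5 CPM against 1.52 and 2.48 CPM, fell with it. The complement genes, counted because C3 fell, were grouped after their values were seen: 6 of 15 fell and 2 rose.

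Several lists of housekeeping genes had no member called by edgeR: 40 of ribosome biogenesis, 41 of cytosolic ribosomal proteins, 33 of oxidative phosphorylation and 29 of proteasome subunits. At an unadjusted p under 0.05 these held 1, 4, 0 and 1 genes, and the DESeq2 test also called 0 in each. Their medians were 0.07, −0.29, −0.22 and −0.14, and the last 2 change sign with upper-quartile factors (0.01 and 0.10). The smaller spread of the LOX-IMVI BR libraries alone gave 18 higher and 13 lower, 2 and 30, 3 and 19, and 0 and 14. NCL, nucleolin, read 1930.3 and 1896 CPM against 1228 and 1361 CPM (−0.56 ± 0.35, adjusted p = 0.31).

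Of 17 genes of plasminogen activation and coagulation 7 fell (41.2%, against 10.8% of all symbol-named genes) and 1, SERPINB2, rose, and 2 to 4 were called lower when 1 library was left out. Of 34 genes of ERK pathway output 3 rose and 6 fell (17.6%), of 26 replication-dependent histone genes 5 fell (19.2%), and of 39 lysosome and autophagy genes 6 fell (15.4%). Heat shock genes had 2 of 25 higher and 1 lower, mitochondrial ribosomal proteins 1 of 39 in each direction, and YAP and TEAD targets 1 of 22 higher and 2 lower. Whichever library was left out, 0 lysosome and 0 heat shock genes and 1 histone gene were called, while in the LOX-IMVI BR libraries alone 8 lysosome genes were higher and 21 lower.

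Outside the lists the largest falls and rises differed in kind. P2RY6, a receptor for UDP, had the largest fall among called symbol genes with 5 CPM or more, from 54.1 and 52.7 CPM to 0.241 and 0.103 CPM (−8.26 ± 0.51, adjusted p = 1.16e-06). SCG2, a granule protein, fell from 41.4 and 40.1 CPM to 1.8 and 1.24 CPM, and LRRC15, a surface protein of matrix-making cells, from 14.4 and 15.1 CPM to 0.0802 and 0.379 CPM. Of the 15 largest rises, 9 were below 1 CPM in both control libraries. GUCA1B, a calcium sensor of photoreceptors, rose from 1.41 and 0.956 CPM to 21.5 and 21.3 CPM (4.18 ± 0.42). CMYA5, a muscle protein, rose from 1.05 and 1.37 CPM to 18.6 and 18.3 CPM, AOC3, an amine oxidase of vessel walls, from 1.21 and 1.09 CPM to 15 and 16.7 CPM, and PTAFR, the receptor for platelet-activating factor, from 0.603 and 0.637 CPM to 7.1 and 8.21 CPM. Among 14675 NONCODE genes 1958 (13.3%) were higher and 530 (3.61%) lower, with a median log2 fold change of 0.34. NONHSAG011557 rose from 0.352 and 0.228 CPM to 11.7 and 13.3 CPM, and NONHSAG043834 fell from 137 and 146 CPM to 6.1 and 7.28 CPM.

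**Figure D4:**
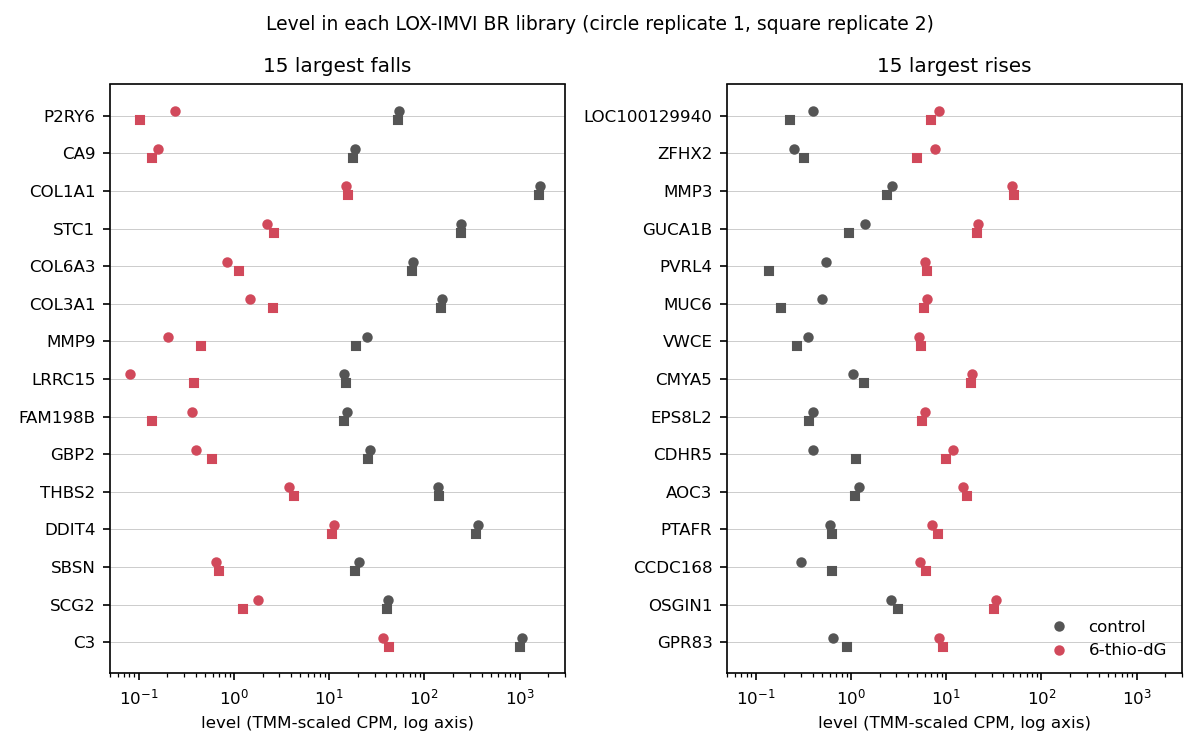
Level in each LOX-IMVI BR library of the 15 genes with the largest falls (left) and the 15 with the largest rises (right), in TMM-scaled CPM on a log axis. Grey points are the control and red points 6-thio-dG. COL1A1 and C3 are the highest in the control, while the highest level on the right is 51.8 CPM, in MMP3.

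The effect of 6-thio-dG was next set against that in A375 by testing the difference between the lines. Replicates agreed less in A375, with a median chi-square of 10.7 in the control and 7.53 with 6-thio-dG. In LOX-IMVI BR these were 0.58 and 0.652. The A375 libraries also entered the spread of all 12 libraries used in the test. It differed for 1612 of 29114 genes (5.54%), in 721 higher (2.48%) and in 891 lower (3.06%) in LOX-IMVI BR; among symbol genes 3.09% were higher and 4.15% lower. Without A375 6-thio-dG replicate 2 the count was 6808 and without 1 of the LOX-IMVI BR libraries 475 to 482. Matrix genes differed in both directions, 16 of 54 downwards in LOX-IMVI BR and 9 upwards. Hypoxia and glycolysis genes differed downwards in 13 of 38 members and upwards in none: VEGFA, lower in both lines, differed by −3.22 and STC1 by −5.33, while ANGPTL4, a lipase inhibitor, rose in A375 (1.71, adjusted p = 0.00571) and differed by −4.64. All 8 of the 22 YAP and TEAD targets that differed did so upwards. In A375 13 of the 22 fell and none rose, where 12.9% of all symbol-named genes fell. In LOX-IMVI BR 1 rose and 2 fell. Of 43 p53 targets 8 differed upwards, of 41 ATF4 genes 13 upwards and 3 downwards, and of 49 mitosis genes 4 downwards. In A375 29 of the 41 ATF4 genes fell and none rose. The type I collagen gene COL1A1 was at 3.07 and 3.26 CPM in the A375 control against 1640.4 and 1618 CPM in the LOX-IMVI BR control. Among the 10 genes followed in both lines, MYC differed most: it read 424 and 410.2 CPM against 538 and 542 CPM in LOX-IMVI BR (adjusted p = 0.425) and 379 and 472 CPM against 27.9 and 18.1 CPM in A375, a difference of 4.58 ± 0.42 (adjusted p = 4.92e-05). CD274, the checkpoint ligand PD-L1, read 27.6 and 24.9 CPM against 11.6 and 11.7 CPM (edgeR adjusted p = 0.0507, DESeq2 adjusted p = 0.0359) and differed by 4.06 ± 0.57. The heme-degrading enzyme gene HMOX1 read 32.9 and 30.4 CPM against 43.2 and 41.3 CPM (adjusted p = 0.429) and 7.07 and 13.6 CPM against 91.8 and 79.4 CPM in A375, a difference of −2.65 ± 0.46. CDKN1A, at 2.36 in LOX-IMVI BR and 1.52 in A375, was not called in this test (0.84 ± 0.47, adjusted p = 0.358).

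**Figure D5:**
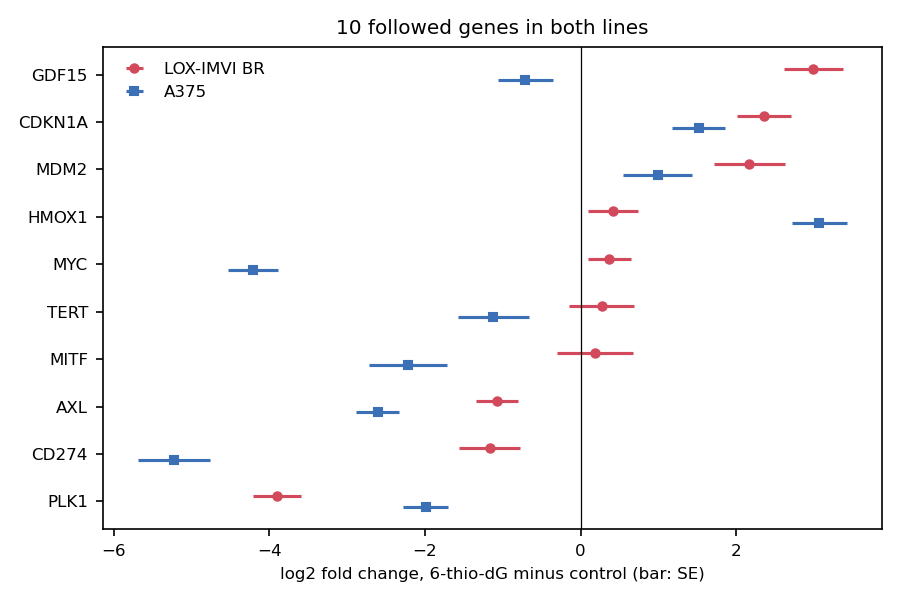
Log2 fold change, 6-thio-dG minus control, of 10 genes followed in both lines, with SE as bars (red circles LOX-IMVI BR, blue squares A375). MYC and CD274 lie far to the left in A375 (−4.21 and −5.23) and near 0 or −1.17 in LOX-IMVI BR.

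The direct contrast of the compounds within LOX-IMVI BR, which holds no control library, gave 5999 calls (20.6%), 2881 higher (9.9%) and 3118 lower (10.7%) with 6-thio-dG than with BIBR1532; among symbol genes 5.53% were higher and 14.8% lower. The doses differ, at 5 and 25 µM, so the values show these 2 exposures only. Of 49 mitosis genes 48 were lower with 6-thio-dG, and PLK1 read 298 and 283 CPM with BIBR1532. Of the 24 interleukin, colony stimulating factor and NF-κB genes 21 were lower: IL6 read 555 and 319 CPM and IL1B 1876 and 1348 CPM with BIBR1532, above the control, while both were below it with 6-thio-dG. The 38 hypoxia and glycolysis genes included 9 lower and 1 higher. CA9 read 0.206 and 0 CPM with BIBR1532 and was not called between the compounds (adjusted p = 0.713), whereas COL1A1, at 1405 and 1502 CPM, was lower with 6-thio-dG (log2 difference −6.55). Of 43 p53 targets 4 were higher and 9 lower with 6-thio-dG than with BIBR1532. GDF15 read 339.7 and 273 CPM with BIBR1532 and was not called (0.18 ± 0.35, adjusted p = 0.784), and CDKN1A read 95.4 and 111 CPM and was higher with 6-thio-dG (1.40 ± 0.34, adjusted p = 0.00943), a call lost with any 1 library left out (adjusted p up to 0.106). With 1 library left out 2447 to 2770 genes were called in this contrast.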

How the data were processed

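The authors deposited 1 table of read counts per gene. Per the submitters' processing notes, STAR, Picard, GATK and featureCounts 1.5.1 were used, with the builds hg19 and GRCh37. Their settings are not given in the sources used here. Of 75253 rows, 54072 were NONCODE loci, 24 had date-like names, which were kept but not named, and 4 ambiguous ones were dropped (at most 0.000913% of a library's counts). Library totals set the precision. Library kits without strand let reads of overlapping genes mix.

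The test of the counts was that of edgeR 4.0.16, run in R 4.3.3, with TMM scaling, filterByExpr, a robust quasi-likelihood fit with 1 mean for each of the 6 groups, and Benjamini-Hochberg adjustment over 29114 genes. DESeq2 1.42.0 was an alternative, and other scalings, filters, libraries and designs were tried. Data were simulated for 6-thio-dG against control in LOX-IMVI BR (29114 genes, 200 of them changed) with the spread of all 12 libraries. In these, 5% of 2-fold and 76% of 4-fold changes were recovered, with 8 unchanged genes called and 0 in the wrong direction. Named genes were the 15 largest called falls and rises with symbols and at least 5 CPM in 1 condition, 3 fixed anchors and up to 5 called members by adjusted p per list, 10 followed genes, 5 families and 4 NONCODE genes. CCNB2 and the glycolysis enzymes LDHA, PGK1, ALDOA, PKM and GAPDH were named after their values were seen. The members and lists were chosen with earlier results of these data known. GENCODE v29 gave overlaps and base composition, and RefSeq promoters were matched by symbol. Results of some named genes are not reported here.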

Additional observations from a re-analysis of the deposited data

Results flagged for a closer look

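The effect of 6-thio-dG differed between LOX-IMVI BR and A375 for 1612 genes in edgeR's test of the difference, and 6 of the 10 followed genes were among them. As LOX-IMVI BR minus A375 on the log2 scale, the difference was 4.58 for MYC, 4.06 for CD274, 3.70 for GDF15 and 1.53 for AXL. It was −1.90 for PLK1, which fell in both lines and further in LOX-IMVI BR, and −2.65 for HMOX1, which rose in A375. GDF15 rose in LOX-IMVI BR and read 687 and 1506 CPM in the A375 control against 832 and 504 CPM with 6-thio-dG. The calls of AXL and PLK1 were lost with any 1 LOX-IMVI BR library left out (adjusted p up to 0.16 and 0.0964), and that of AXL also with upper-quartile factors (1.33, adjusted p = 0.121).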

How the results depend on the processing

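For 6-thio-dG against control, the calls went from 4939 to 15119 (7708 higher, 7411 lower) with the LOX-IMVI BR libraries alone, 4744 of the 4939 among them, and to 15977 (8103 and 7874) with the 4 libraries compared. They fell to 2973 (1795 and 1178) with a fold threshold of 1.5 and to 2243 (1104 and 1139; 49.2% higher) with symbol-named genes alone. Leaving out 1 library gave 1550 to 1864 calls (702 to 1142 higher, 665 to 867 lower; 45.3 to 62.3% higher). Upper-quartile factors left 1362 lower and 73.5% higher, and a GC correction, chosen after seeing the data, 1856 higher and 43.9% higher (median shift 0.143). The GC correction, here and for the difference between lines, covered only 14032 symbol-named genes of known base composition. Its share of higher calls therefore cannot be set against that over all 29114 genes. Symbol-named genes in the main test had 896 higher and 1551 lower. DESeq2's test gave 47.7% higher.

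The difference between lines gave 2507 calls without a low-count filter, 907 with the fold threshold, 2871 with the GC correction and 475 to 6808 with 1 library left out, the highest without A375 6-thio-dG replicate 2. The contrast with BIBR1532 gave 16112 calls with the LOX-IMVI BR libraries alone, 2666 with symbol-named genes alone, 3860 with the fold threshold and 2447 to 2770 with 1 library left out, and 69.5% of its calls were higher with upper-quartile factors. The cause was not tested.

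Some uncalled genes changed sign. With upper-quartile factors, symbol-named genes alone and the GC correction PCNA read 0.11, 0.06 and 0.08 and COL5A1 0.19, 0.15 and 0.01 (0 with the 1 CPM filter). ATM read 0.03 with upper-quartile factors and 0.02 with the GC correction, and TERT against BIBR1532 0.22 with upper-quartile factors and 0.12 with symbol-named genes alone. Among the genes whose values are given above for 6-thio-dG against control, no other changed sign in these alternatives.

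Over all genes the correlation of replicate differences between the LOX-IMVI BR control and 6-thio-dG libraries was −0.0037. This cannot exclude that replicate numbers pair the libraries, because replicates differed by little more than counting error. Some keratinocyte markers read higher in replicate 1 in both conditions, such as KRT1 (7.73 and 5.28 CPM, 9.1 and 4.31 CPM). Others did not, such as FLG (68.4 and 69 CPM, 102 and 115 CPM). With a replicate block 4043 genes were called (2339 higher, 1704 lower), 1108 for the difference between lines and 5053 against BIBR1532. Among named results the block ended the calls of GAPDH (adjusted p = 0.0564), SLC7A5 (0.0711), SMG6 (0.0728), CLDN5 (0.0647) and ROBO4 (0.0541), of the AXL difference between lines (0.0762) and of MYC against BIBR1532 (0.0655), and it made the MITF difference between lines a call (0.0468). In data simulated with the spread of all 12 libraries and 200 changed genes, most 2-fold changes were missed (5% recovered). Many more genes were called in the real data (4939), where the adjusted p threshold is therefore less strict. The 5% is thus not the recovery in the real comparison. Recovery at the smaller spread of the LOX-IMVI BR libraries alone was not tested.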
